A study of Mus musculus with 18 samples.

Results

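The aminoacyl-tRNA synthetase genes are the 38 protein-coding genes of the deposited count table whose symbols name a synthetase by the letter of its amino acid, out of 51912 genes counted. All 38 passed the filter of at least 10 read pairs over the 18 libraries, as 24495 genes did. Of the 38 genes, 21 were counted as cytosolic and 17, with symbols ending in 2, as mitochondrial. *Tarsl2*, a cytosolic threonyl-tRNA synthetase paralog, was kept with the cytosolic genes, as were *Gars* and *Kars*, which encode both the cytosolic and the mitochondrial enzyme. Among the cytosolic genes, 8 encode enzymes of the multi-synthetase complex and 13 do not.

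The cells were primary cortical astrocyte cultures from transgenic mice of line JD130Htz, on a B6;FVB background, whose Aldh1l1-EGFP/Rpl10a transgene makes ribosomal protein RPL10A with an EGFP tag from the astrocyte promoter of *Aldh1l1*. Cortices of male and female newborn pups were combined, and the cells grew for 14 days, then for 6 days after replating and for 24 h without serum. Dishes then received 50 mM ethanol or control medium, serum-free in either case, for 24 h. In translating ribosome affinity purification (TRAP), tagged ribosomes are pulled down from a lysate, so that the IP libraries are enriched in mRNA bound to astrocyte ribosomes, while the input libraries hold RNA of the whole lysate. There were 6 control IP, 6 ethanol IP, 3 control input and 3 ethanol input libraries, the input libraries coming from 3 of the 6 dishes of each treatment. All 4 groups came from such transgenic mice, so that every control carried the transgene too. Whether the dishes of a group came from separate litters is not stated in the sources used here, so that p-values measure the spread between dishes.

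Aminoacyl-tRNA synthetases join each amino acid to its own tRNA, which makes the substrate for the ribosome. Cytosolic enzymes serve translation of nuclear-encoded mRNA, and a separate set, also encoded in the nucleus, serves translation inside mitochondria. Several cytosolic enzymes are held together in the multi-synthetase complex by the scaffold proteins encoded by *Aimp1*, *Aimp2* and *Eef1e1*. When amino acids run short, uncharged tRNA activates the kinase GCN2 (*Eif2ak4*), and the transcription factor ATF4 then activates genes of amino acid supply, among which are genes of many cytosolic synthetases.

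Because ATF4 binds with C/EBP partners to a composite element, TGATGNAA, the start-proximal sequences of the members that carry these letters are shown first. RefSeq promoters (GRCm38.p6, 250 bases before to 50 bases after the start) were matched for 28 of the 38 members. The element, on either strand, occurred in the promoters of 5 of the 28 members (17.9%) and in 3.97% of all 32851 promoters. The 5 were *Aars*, *Gars*, *Iars*, *Tars* and *Yars*, all among the 14 cytosolic members matched, while 0 of the 14 mitochondrial members matched had it. The E-box CACGTG, a site of the Myc and Max family, occurred in 5 of the 28 members (17.9%) and in 7.15% of all promoters. It stood in *Aars*, *Iars* and *Tars*, where it did not overlap the element, and in *Farsb* and *Ears2*. The 210 bases from 160 before to 50 after the start are given for the 5 members, 5′ to 3′ on the strand of the gene, with the element and the E-box in capitals. A match of letters is a description and does not show a bound site.
Aars, chr8:111033682-111033891, plus strand: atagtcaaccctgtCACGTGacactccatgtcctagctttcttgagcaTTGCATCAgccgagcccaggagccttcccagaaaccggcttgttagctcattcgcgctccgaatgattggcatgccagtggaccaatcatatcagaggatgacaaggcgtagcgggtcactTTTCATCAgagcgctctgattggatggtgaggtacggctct
Gars, chr6:55037841-55038050, plus strand: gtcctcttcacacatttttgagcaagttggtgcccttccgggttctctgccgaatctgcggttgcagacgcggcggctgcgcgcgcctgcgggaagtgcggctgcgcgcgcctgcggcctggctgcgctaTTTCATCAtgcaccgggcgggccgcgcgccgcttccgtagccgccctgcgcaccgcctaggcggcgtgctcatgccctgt
Iars, chr13:49681970-49682179, plus strand: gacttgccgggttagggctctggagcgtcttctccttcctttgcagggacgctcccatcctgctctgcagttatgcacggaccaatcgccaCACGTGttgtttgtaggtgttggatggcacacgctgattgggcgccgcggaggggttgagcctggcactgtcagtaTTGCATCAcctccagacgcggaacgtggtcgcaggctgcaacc
Tars, chr15:11399609-11399818, minus strand: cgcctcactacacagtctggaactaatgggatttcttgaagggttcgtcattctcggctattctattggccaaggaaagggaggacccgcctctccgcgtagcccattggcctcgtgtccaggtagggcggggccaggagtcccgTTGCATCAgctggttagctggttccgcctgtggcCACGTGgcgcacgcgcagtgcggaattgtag
Yars, chr4:129189743-129189952, plus strand: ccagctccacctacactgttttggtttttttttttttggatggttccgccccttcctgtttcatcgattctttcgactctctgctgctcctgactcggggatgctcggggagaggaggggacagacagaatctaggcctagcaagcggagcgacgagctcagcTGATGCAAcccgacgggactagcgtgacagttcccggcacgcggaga

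In the sequence of *Aars* the element occurred at 2 places, 1 before and 1 after the start, and in *Gars*, *Iars*, *Tars* and *Yars* at 1 place each. In *Iars* and *Yars* it lay after the start, and in *Gars* and *Tars* before it. The letters read TTGCATCA in *Iars*, *Tars* and the upstream copy of *Aars*, TTTCATCA in *Gars* and the downstream copy of *Aars*, and TGATGCAA in *Yars*, which is the first of these read on the other strand.

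Cytosolic synthetase mRNAs were mostly at higher levels than mitochondrial ones. Levels are given as CPM, the read pairs of a gene scaled to a common library size. Per kb of the longest annotated transcript, the median in IP control libraries was 31.1 CPM over the 21 cytosolic genes and 5.68 over the 17 mitochondrial genes. In input control libraries the medians were 27.3 and 4.60 CPM. Without *Lars2* the mitochondrial medians were 5.57 in IP control and 4.57 CPM in input control. Among 14 amino acids with a separate cytosolic and mitochondrial gene, the cytosolic gene had the higher level per kb for 12, with a median ratio of 4.92 in IP control and 4.95 in input control libraries. The ratio ran to 34.9 for *Mars* over *Mars2* in IP control. The exceptions were *Iars*, at 17.1 against 22.1 for *Iars2*, and *Lars*, at 25.0 against 277 for *Lars2*. Outside *Lars2*, the highest levels per kb in IP control were those of *Nars* (79.1), *Kars* (73.1) and *Rars* (58.2), which encode the asparaginyl-, lysyl- and arginyl-tRNA synthetases. The lowest was that of *Mars2*, at 0.805 over a longest transcript of 11294 bases.

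**Figure D1:**
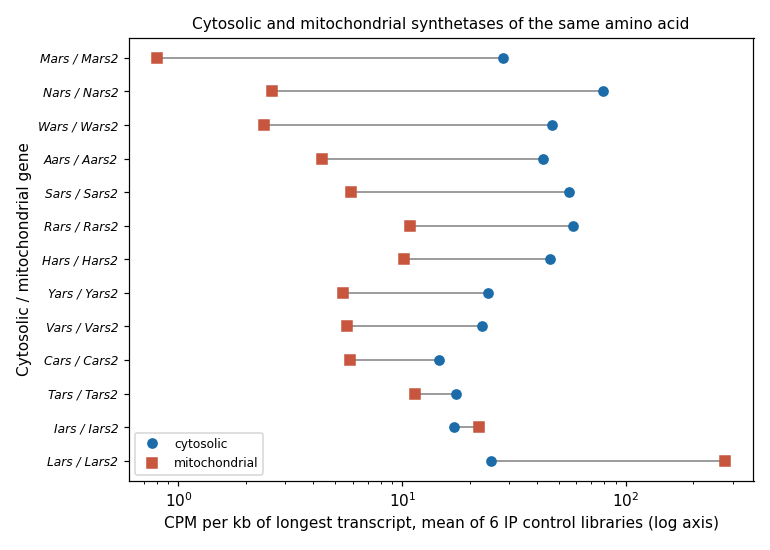
Mean level of cytosolic (circles) and mitochondrial (squares) synthetase mRNAs of the same amino acid in 6 IP control libraries, in CPM per kb of the longest transcript on a log axis. For the 13 amino acids shown, the cytosolic gene lies to the right except for isoleucine and leucine, and *Lars2*, at 277, lies far to the right of *Lars*.

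*Lars2*, the mitochondrial leucyl-tRNA synthetase, stood apart from the other members in level and in spread. It had 524, 707 and 863 CPM in the input control libraries and 663, 839 and 880 CPM in the input ethanol libraries. In IP it ran from 900 to 1324 CPM (median 1045) in control and from 881 to 1158 CPM (median 927) in ethanol libraries. By comparison, *Iars2*, the mitochondrial member with the next highest level per kb, ran only from 119 to 123 CPM over the 12 IP libraries. The longest transcripts of *Lars2* shared 72 bases at 98.6% identity with the antisense transcript *Gm15564*, and where the reads of *Lars2* lie along the gene was not analysed here. Medians over mitochondrial members are given also without it.

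The first comparison asked how ethanol changed the mRNA bound to astrocyte ribosomes. In IP, 12 of the 38 members (31.6%) were downregulated by ethanol and 2 (5.26%) were upregulated at an adjusted p below 0.05 (edgeR quasi-likelihood test). Of all genes tested, 9.48% were downregulated and 11.9% upregulated. Among protein-coding genes tested, as all members are, the shares were 12.6% and 16.4%. All 9 cytosolic members called were lower, out of 21, and the mitochondrial members called were 3 lower and 2 higher, out of 17. The changes were small. The largest, that of *Sars2*, was a decrease of 15.9% on the linear scale, and 0 of the 38 members passed an edgeR test against a fold change of 1.2, as 0.233% of all genes did downwards and 0.155% upwards.

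*Sars2*, the mitochondrial seryl-tRNA synthetase (chr7:28741992-28753871, GRCm38, plus strand), ran from 10.3 to 11.5 CPM (median 11.02) in IP control and from 8.51 to 9.58 CPM (median 9.30) in IP ethanol libraries. The 6 ethanol libraries all lay below the 6 control libraries, and ethanol changed it by -0.25 ± 0.05 on the log2 scale (SE, edgeR adjusted p = 3.49e-05). *Mars2*, the mitochondrial methionyl-tRNA synthetase (chr1:55237177-55248470, plus strand), ran from 8.35 to 9.65 CPM (median 9.17) in control and from 7.47 to 8.61 CPM (median 8.03) in ethanol libraries. These ranges overlapped, and the log2 fold change was -0.17 ± 0.05 (SE, edgeR adjusted p = 0.00994).

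*Hars*, the cytosolic histidyl-tRNA synthetase, ran from 88.6 to 93.6 CPM (median 90.9) in IP control and from 77.5 to 84.6 CPM (median 82.2) in IP ethanol libraries, again without overlap. Its log2 fold change was -0.15 ± 0.03 (SE, edgeR adjusted p = 4.67e-06). *Hars* and *Hars2* lie head to head on opposite strands and share 198 bases of annotated span. *Hars2* itself was not called, with a log2 fold change of 0.005 ± 0.031 (SE), and the counts of the sense strand gave the same calls in IP for every member. *Tars2*, the mitochondrial threonyl-tRNA synthetase (chr3:95739976-95760206, minus strand), ran from 35.5 to 37.8 CPM (median 37.0) in control and from 31.5 to 35.3 CPM (median 33.8) in ethanol libraries. The groups did not overlap, and the log2 fold change was -0.14 ± 0.03 (SE, edgeR adjusted p = 0.000719).

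The other cytosolic members that fell in IP were *Farsa* (log2 fold change -0.14 ± 0.03, SE), the catalytic subunit of phenylalanyl-tRNA synthetase, *Tars* (-0.13 ± 0.03), and *Wars* (-0.07 ± 0.02), the tryptophanyl-tRNA synthetase, and in the multi-synthetase complex *Lars* (-0.12 ± 0.02), *Rars* (-0.11 ± 0.03), *Kars* (-0.10 ± 0.02), *Dars* (-0.08 ± 0.02) and *Eprs* (-0.07 ± 0.02). *Eprs* encodes the bifunctional glutamyl-prolyl enzyme and *Dars* the aspartyl enzyme. The complex thus had 5 of its 8 enzymes lower and 0 higher, and the other cytosolic genes 4 of 13 lower and 0 higher. Among amino acids with separate cytosolic and mitochondrial genes, threonine was the single one for which both genes fell in IP. *Kars*, 1 gene for both enzymes, fell too. *Farsb*, the partner subunit of *Farsa*, had a log2 fold change of -0.07 ± 0.03 (SE) and was not called in the edgeR fit (adjusted p = 0.0937), though DESeq2 called it.

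The members that rose in IP were both mitochondrial. *Fars2*, the mitochondrial phenylalanyl-tRNA synthetase, rose from 24.5 ± 1.24 to 26.6 ± 1.26 CPM (SD, n = 6 each). This was 0.12 ± 0.04 on the log2 scale (SE, edgeR adjusted p = 0.0113). *Vars2*, the mitochondrial valyl-tRNA synthetase, rose from 25.1 ± 1.08 to 27.0 ± 1.02 CPM (SD, n = 6 each), which was 0.11 ± 0.04 on the log2 scale (SE, edgeR adjusted p = 0.0152). Their control and ethanol ranges overlapped. *Vars2* lies over the antisense gene *Gm20483*, and its call was lost after removal of GC and length trends. *Dars* lost its call in the same fit, while *Aars* and *Aars2* were then called.

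Over all members, the groups did not overlap for 8 of 38 (*Dars*, *Kars*, *Lars*, *Hars*, *Tars*, *Ears2*, *Sars2* and *Tars2*), where 9.96% of all genes tested had groups that did not overlap. The median log2 fold change in IP was -0.07 over the complex, -0.02 over the other cytosolic genes and -0.02 over the mitochondrial genes (-0.01 without *Lars2*), against 0.01 over all genes tested. Counts summed over the 8 complex enzymes ran from 916 to 932 CPM in IP control and from 865 to 899 CPM in IP ethanol libraries. The sums over the other cytosolic genes overlapped, at 1357 to 1411 CPM in IP control and 1314 to 1394 CPM in IP ethanol libraries. Those over the mitochondrial genes without *Lars2* overlapped too, at 377 to 382 and 372 to 382 CPM. Fold changes of mitochondrial members were less precise, with a median SE of 0.04 against 0.03 for cytosolic members on the log2 scale, and whether the classes differ in their response was not tested.

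**Figure D2:**
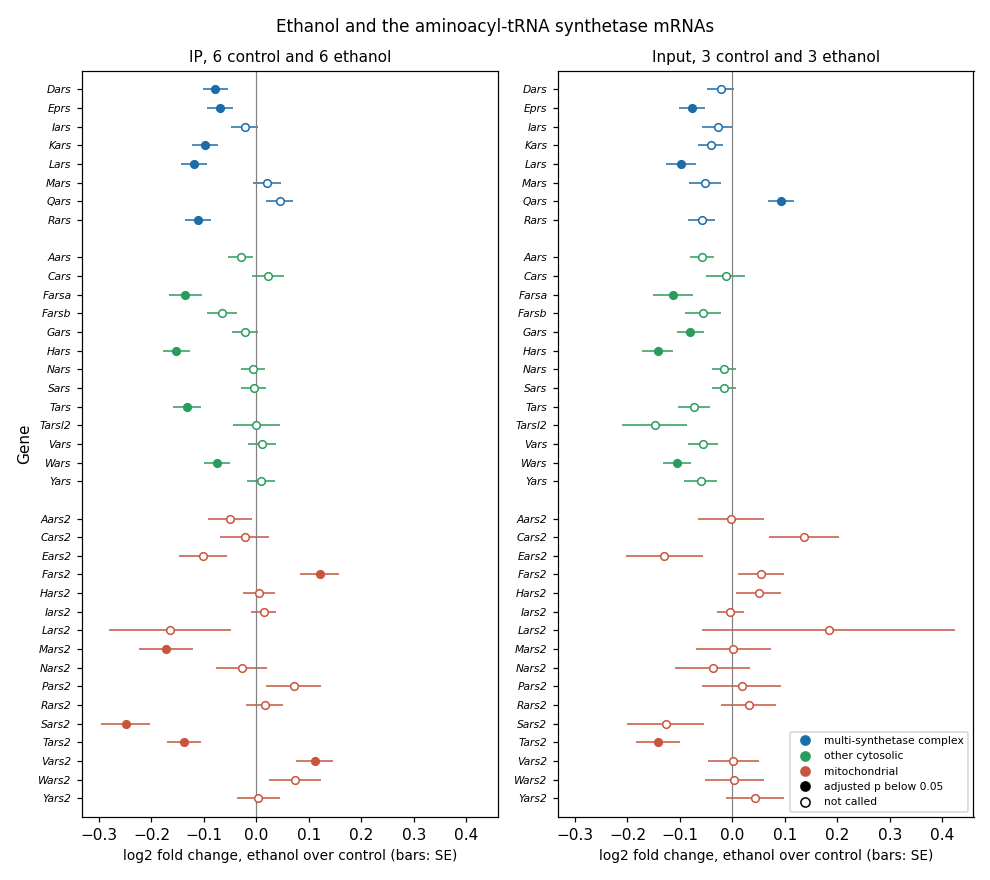
Log2 fold change of ethanol over control for 37 of the 38 members, with SE bars, in IP (left) and input (right), grouped as complex, other cytosolic and mitochondrial. Filled points have an adjusted p below 0.05. In IP 12 are filled below 0 and 2 above, and in input 7 below and 1 above.

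In IP libraries of replicates 4 to 6, whose dishes also gave input libraries, 9 members were called lower and 0 higher, where 7.72% of all genes were lower and 7.45% higher. In those of replicates 1 to 3, with no input library, 8 were called lower and 0 higher, where 5.6% of all genes were lower and 6.63% higher. *Lars*, *Rars*, *Farsa*, *Hars*, *Tars*, *Sars2* and *Tars2* were called lower in either subset, with *Hars* at log2 fold changes of -0.16 in each. *Dars*, *Wars*, *Fars2* and *Vars2* were called in neither. When libraries were left out singly, *Eprs* lost its call without control replicate 5 or without ethanol replicate 2, 4 or 6, *Wars* without ethanol replicate 1, *Fars2* without ethanol replicate 2, and *Vars2* without control replicate 3 or 4 or ethanol replicate 2 or 4. The count of members higher was then 0 without ethanol replicate 2, and the count lower ranged from 11 to 13.

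The second comparison asked how ethanol changed the mRNA of the whole culture. In input, 7 of the 38 members (18.4%) were downregulated and 1 (2.63%) was upregulated. These shares were 7.78% and 7.21% over all genes tested, and 10.7% and 9.94% over protein-coding genes tested. The 7 were *Eprs* and *Lars* of the complex, *Hars*, *Farsa*, *Wars* and *Gars* of the other cytosolic genes, and *Tars2* of the mitochondrial genes. All but *Gars* were also called lower in IP. The input libraries came from the lysates of IP replicates 4 to 6, so that the fractions share dishes. The member higher was *Qars*, the glutaminyl-tRNA synthetase of the complex. In the edgeR test against a fold change of 1.2, 0 members passed, where 0.192% of all genes were lower and 0.0327% higher.

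*Hars* had 74.2, 74.8 and 75.5 CPM in the input control libraries and 65.9, 67.9 and 70.1 CPM in the input ethanol libraries. The groups were apart, and the log2 fold change was -0.14 ± 0.03 (SE, edgeR adjusted p = 2.01e-05). *Tars2* had 28.6, 28.9 and 30.3 CPM in control and 25.4, 26.3 and 28.1 CPM in ethanol libraries. These groups too were apart, with a log2 fold change of -0.14 ± 0.04 (SE, edgeR adjusted p = 0.00816).

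*Farsa* (chr8:84856989-84869257, plus strand) had 34.6, 35.0 and 37.4 CPM in input control and 32.6, 33.2 and 33.3 CPM in input ethanol libraries, a log2 fold change of -0.11 ± 0.04 (SE, edgeR adjusted p = 0.0272). *Wars* (chr12:108860030-108894174, minus strand) had 95.5, 97.4 and 99.4 CPM in control and 89.5, 91.2 and 91.9 CPM in ethanol libraries, a log2 fold change of -0.11 ± 0.03 (SE, edgeR adjusted p = 0.00114). In neither gene did the groups overlap, although for *Farsa* the highest ethanol and lowest control libraries were close. DESeq2 did not call *Farsa* in input.

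*Qars* (chr9:108507706-108515941, plus strand) rose from 114 ± 0.762 to 122 ± 3.23 CPM in input (SD, n = 3 each), that is by 0.09 ± 0.03 on the log2 scale (SE, edgeR adjusted p = 0.00306). In IP its log2 fold change was 0.04 ± 0.03 (SE), which was not called. *Gars*, the glycyl-tRNA synthetase (chr6:55038007-55079500, plus strand), had 101, 102 and 102 CPM in input control and 96.1, 96.3 and 96.6 CPM in input ethanol libraries, and fell by 0.08 on the log2 scale (SE 0.03, edgeR adjusted p = 0.0197). In IP *Gars* ran from 102 to 108 CPM in control and from 101 to 107 CPM in ethanol libraries, overlapping nearly throughout.

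*Kars*, the other gene that encodes both the cytosolic and the mitochondrial enzyme, was called in IP and not in input. Its counts ran from 157 to 165.5 CPM (median 159) in IP control and from 143 to 155.9 CPM (median 147.6) in IP ethanol libraries, without overlap. In input it had 142, 146.2 and 146.7 CPM in control and 137, 139.6 and 146.6 CPM in ethanol libraries, which overlapped, with a log2 fold change of -0.04 ± 0.02 (SE). The difference between the fractions was not called for *Kars* or *Gars*.

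Of the cytosolic members, 20 of 21 had an estimate below 0 in input, *Qars* being the exception, and 16 of 21 in IP. Of the mitochondrial members, 7 of 17 were below 0 in input and 9 of 17 in IP. The median log2 fold change in input was -0.05 over the complex, -0.06 over the other cytosolic genes and 0.002 over the mitochondrial genes (also 0.002 without *Lars2*), against -0.001 over all genes tested. The groups did not overlap for 12 of the 38 members, where 27.1% of all genes tested had such groups. Among protein-coding genes, 5732 of 17056 had them. Without input ethanol replicate 4 the count of members lower was 4, and over the 6 input libraries left out singly it ranged from 4 to 9. *Hars*, *Wars* and *Qars* kept their calls in each of these fits. *Eprs* lost its call without control replicate 4 or ethanol replicate 5, *Farsa* without control replicate 6 or ethanol replicate 5, *Lars* without ethanol replicate 4, *Tars2* without control or ethanol replicate 4, and *Gars* without control replicate 4 or 5 or ethanol replicate 4.

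**Figure D3:**
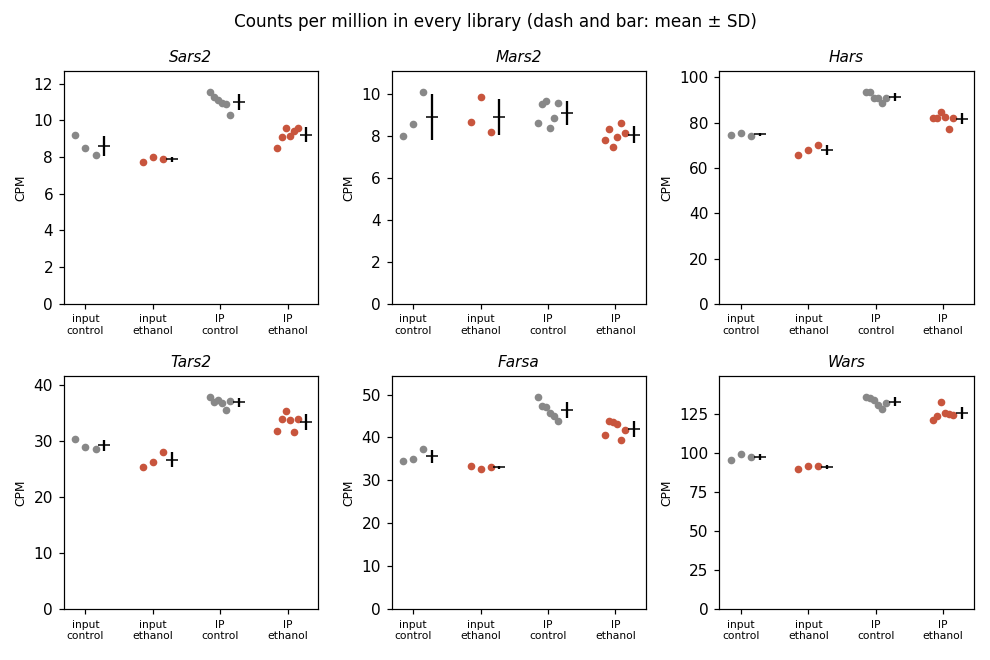
CPM of 6 members in each library (grey points, control; red points, ethanol; dash and bar, mean ± SD; 3 libraries per input group and 6 per IP group; axes start at 0). *Hars* and *Tars2* separate by treatment in both fractions, while the *Mars2* groups overlap in both.

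An interaction term in the edgeR fit of all 18 libraries asked whether ethanol acted differently on the IP and input levels. It was called for 0 of the 38 members, and for 0 (0%) of the 24495 genes tested, of which 1459 had an unadjusted p below 0.05. Among the members 1, *Cars2*, had an unadjusted p below 0.05. DESeq2 called 0 members, 1 of which, *Dars*, had an unadjusted p below 0.05, and 4 of all genes. With the dish as a replicate block in the 12 libraries of dishes sequenced in both fractions, 0 of 38 members were called (0.416% of all genes tested) and 4 had an unadjusted p below 0.05. For *Hars* the effect in IP minus that in input was -0.02 ± 0.04 on the log2 scale (SE), for *Kars* -0.07 ± 0.04, for *Gars* 0.05 ± 0.04, and for *Sars2* -0.13 ± 0.08. The median SE over the members was 0.05, and differences between the fractions well above that size could also go undetected. For *Mars2* a difference of -0.18 ± 0.09 (SE) was not called.

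The third comparison set the mRNA on astrocyte ribosomes against that of the lysate. Synthetase mRNAs were mostly higher in IP. Relative to input, 30 of the 38 members (78.9%) were higher in IP and 2 (5.26%) lower. These shares were 25.2% and 25.8% over all genes tested, and 34.0% and 29.5% over protein-coding genes tested. The 30 comprised 7 of 8 complex enzymes, 12 of 13 other cytosolic genes and 11 of 17 mitochondrial genes. The groups did not overlap for 26 members, as for 25% of all genes tested. The median log2 difference was 0.20 over the complex, 0.26 over the other cytosolic genes and 0.25 over the mitochondrial genes (0.23 without *Lars2*), against -0.03 over all genes tested. In a lysate of mixed cells, a larger part of an mRNA being on ribosomes and more of that mRNA coming from astrocytes cannot be told apart.

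*Aars*, the alanyl-tRNA synthetase (chr8:111033144-111057664, plus strand), had the largest difference. It ran from 231 to 255 CPM over the 12 IP libraries and from 162 to 172 CPM over the 6 input libraries, a log2 difference of 0.53 ± 0.02 (SE, edgeR adjusted p = 1.2e-35). *Aars* shares 1326 bases with *Exosc6* on the same strand, and read pairs there that STAR found ambiguous were not counted. *Lars* ran from 89.2 to 102 CPM in IP and from 64.5 to 71.3 CPM in input, a log2 difference of 0.47 ± 0.02 (SE, edgeR adjusted p = 5.16e-32).

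*Wars* ran from 121 to 136 CPM in IP and from 89.5 to 99.4 CPM in input, a log2 difference of 0.45 ± 0.02 (SE, edgeR adjusted p = 1.39e-31). *Lars2* and *Mars* had log2 differences of 0.45 and 0.44. In *Aars*, *Lars* and *Wars*, every IP library was above every input library under either treatment. *Lars2*, at 0.45 ± 0.12 (SE), was much less precise, and it was not called in the ethanol libraries alone.

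At the other end, *Wars2*, the mitochondrial tryptophanyl-tRNA synthetase (chr3:99141068-99239186, plus strand), ran from 9.74 to 12.3 CPM in IP and from 13.3 to 15.8 CPM in input. All IP libraries were below all input libraries, with a log2 difference of -0.45 ± 0.04 (SE, edgeR adjusted p = 6.93e-16). In IP relative to input, though not in level, tryptophan thus had its cytosolic mRNA among the highest of the members and its mitochondrial mRNA the lowest. *Qars* ran from 99.7 to 110 CPM in IP and from 113 to 124 CPM in input, also apart, with a log2 difference of -0.17 ± 0.02 (SE, edgeR adjusted p = 2.12e-11). *Qars* was the single complex enzyme below input and the single member that rose in input with ethanol.

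*Sars*, the seryl-tRNA synthetase, had the smallest difference among the members called higher, 0.07 ± 0.02 (SE, edgeR adjusted p = 0.00303). Its libraries ran from 185 to 207 CPM in IP and from 185 to 191 CPM in input, which overlapped. The call was lost in the 12 libraries of dishes sequenced in both fractions, with and without the dish as a replicate block, with total counts as library sizes, and in either treatment alone. *Gars* (0.08 ± 0.02, SE) and *Kars* (0.11 ± 0.02) were also near the low end. *Tarsl2*, *Mars2*, *Cars2*, *Yars2*, *Pars2* and *Fars2* were not called in the main fit, and 5 of these 6 are mitochondrial. *Cars2* (0.09 ± 0.04, SE, edgeR adjusted p = 0.0706) was called higher with sense strand counts, without the filter, with the dish as a block and in control libraries alone. Its sense strand count was 129% of the unstranded count used. *Tarsl2* was called lower with total counts and in control libraries alone. Against a fold difference of 1.2, 10 members were higher and 1, *Wars2*, lower, where 7.8% of all genes were higher and 12.4% lower.

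**Figure D4:**
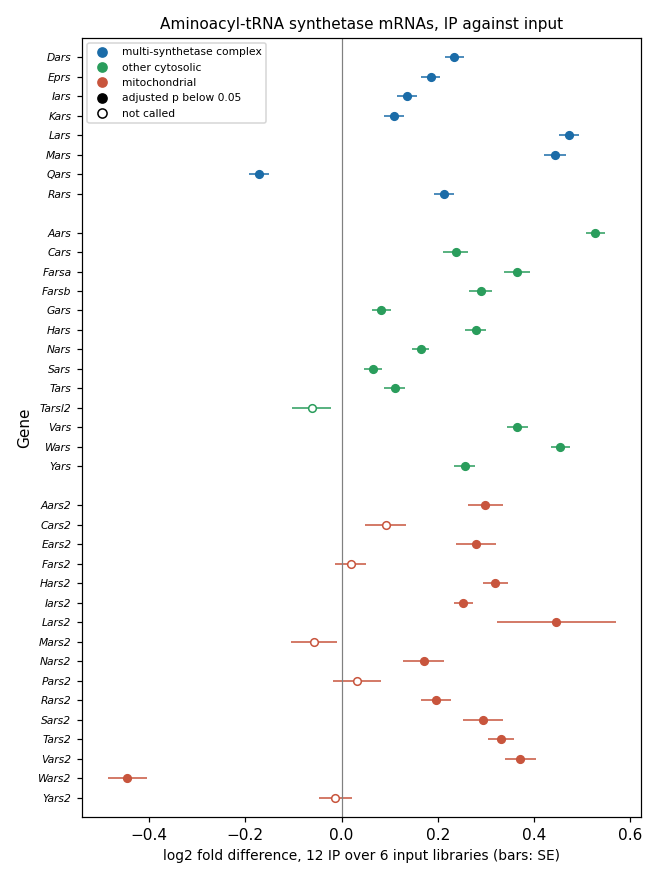
Log2 difference of 12 IP over 6 input libraries for 37 of the 38 members, with SE bars, grouped as complex, other cytosolic and mitochondrial. Filled points have an adjusted p below 0.05. Points spread up to 0.53 (*Aars*), and *Qars* and *Wars2* are the filled points below 0.

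Marker genes moved with this comparison too. The 10 astrocyte markers summed to between 1799 and 2000 CPM in IP and between 1167 and 1247 CPM in input. Of them, 8 were called higher and 1 lower in IP, where 25.2% of all genes tested were higher and 25.8% lower. The 8 microglia markers summed to between 12.03 and 15.5 CPM in IP and between 68.5 and 82.1 CPM in input, and 7 were lower in IP. So the IP libraries held more RNA of astrocyte marker genes and less of microglia marker genes than the lysate did, and the microglia gene *P2ry12* was below 1 CPM in both. The 6 fibroblast and meningeal markers had medians of 138 and 144.9 CPM in IP control and ethanol and of 240 and 243 CPM in input control and ethanol libraries. Neuron markers (8 genes, with *Rbfox3*, *Snap25*, *Slc17a7* and *Gad2* below 1 CPM) had medians of 141 and 127 CPM in IP, in the same order. In input their medians were 114 and 104 CPM. The neuron sum was mostly *Stmn2*, with a mean of 101 CPM in IP and 85.3 CPM in input. Oligodendrocyte lineage markers (8 genes, with *Sox10*, *Mog* and *Mag* below 1 CPM) had medians of 256 and 235 CPM in IP. In input their medians were 165.5 and 149.7 CPM. This sum was mostly *Olig1*, with a mean of 195 CPM in IP and 119 CPM in input.

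Markers moved with ethanol as well. In IP the summed astrocyte markers went from a median of 1849 to 1952 CPM, and the summed endothelial and mural markers (7 of 8 tested) from a median of 1695 to 1180 CPM. In input the medians went from 1210 to 1239 CPM and from 1329 to 935 CPM. Of the astrocyte markers, 4 of 10 were called higher and 0 lower in IP, and 4 higher and 3 lower in input. Over all genes tested, 11.9% were higher and 9.48% lower in IP, and 7.21% higher and 7.78% lower in input. The endothelial and mural sum was mostly *Acta2*, a contractile gene, with a mean of 1329 CPM in IP and 988 CPM in input, while *Pecam1* and *Cdh5* were below 1 CPM, and 2 of the 7 were called lower in each fraction. The part of these cell types in the results on the synthetases was not tested, and in such bulk samples fewer cells of a type and less RNA per cell cannot be told apart.

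Among 21 other genes of the pathway, 4 were lower and 0 higher with ethanol in IP, where 9.48% of all genes tested were lower and 11.9% higher. In input 4 were lower and 1 higher, where 7.78% of all genes were lower and 7.21% higher. Scaffolds of the multi-synthetase complex moved most. *Eef1e1* (AIMP3) ran from 19.0 to 20.1 CPM in IP control and from 14.7 to 16.9 CPM in IP ethanol libraries, and fell by 0.30 on the log2 scale in IP (SE 0.04, edgeR adjusted p = 1.46e-08) and by 0.20 in input (SE 0.05, edgeR adjusted p = 0.000748). *Aimp2* ran from 13.0 to 14.0 CPM in IP control and from 10.3 to 12.4 CPM in IP ethanol libraries, and fell by 0.20 in IP (SE 0.05) and by 0.22 in input (SE 0.06). In both genes the treatments were apart in IP. *Aimp1* was not called, at 0.04 ± 0.03 in IP and 0.05 ± 0.03 in input (SE). With the 8 enzymes, 7 of the 11 complex genes were lower in IP and 0 higher.

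*Ptrhd1*, named for its peptidyl-tRNA hydrolase domain, fell in IP (-0.16 ± 0.06, SE). *Tufm*, the mitochondrial elongation factor that delivers charged tRNA, fell in input (-0.11 ± 0.03), and *Impact*, an inhibitor of GCN2 activation, rose in input (0.08 ± 0.02). *Eif2ak4* itself was not called with ethanol in either fraction (0.05 ± 0.04 in IP and 0.06 ± 0.05 in input). The genes of the mitochondrial glutaminyl-tRNA amidotransferase, of initiator formylation and of selenocysteinyl-tRNA synthesis were not called with ethanol.

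Among other genes of the ATF4 programme more rose than fell. Of 30 such genes, from a list without synthetases, 15 rose and 2 fell with ethanol in IP (median log2 fold change 0.11), where 11.9% of all genes tested rose and 9.48% fell. In input 13 rose and 3 fell (median 0.06), where 7.21% of all genes rose and 7.78% fell. *Atf4* ran from 147.1 to 159.8 CPM in IP control and from 157 to 169 CPM in IP ethanol libraries, overlapping, with log2 fold changes of 0.10 ± 0.02 in IP and 0.07 ± 0.02 in input (SE, edgeR adjusted p = 0.00137 and 0.0338). *Atf5*, a related transcription factor, ran from 157 to 169 CPM in IP control and from 215 to 240 CPM in IP ethanol libraries, well apart, with log2 fold changes of 0.46 ± 0.03 and 0.37 ± 0.02 (SE).

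*Trib3*, a pseudokinase of the stress response, changed by 0.46 ± 0.08 in IP and 0.36 ± 0.11 in input (SE, log2). The amino acid transporter genes *Slc38a2* (0.38 ± 0.03 in IP and 0.34 ± 0.03 in input) and *Slc7a11* (0.30 ± 0.035 and 0.19 ± 0.037) rose as well. *Ddit3* (CHOP), which shares 68 bases of annotated span with *Mars* on the opposite strand, rose by 0.25 ± 0.03 in IP and by 0.25 ± 0.03 in input, while *Mars* was not called (0.02 ± 0.03 and -0.05 ± 0.03). *Asns*, the asparagine synthetase gene, was not called (0.05 ± 0.03 and 0.002 ± 0.04). The serine synthesis genes *Psat1* (-0.24 ± 0.03 and -0.27 ± 0.04) and *Phgdh* (-0.15 ± 0.03 and -0.17 ± 0.03) fell in both fractions, and the transporter gene *Slc7a1* fell in input (-0.18 ± 0.05).

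Among the 28 members with a matched promoter, the 5 that hold the composite element were not called higher. In IP the log2 fold changes were -0.03 ± 0.02 for *Aars*, -0.02 ± 0.02 for *Gars*, -0.02 ± 0.03 for *Iars*, 0.01 ± 0.03 for *Yars* and -0.13 ± 0.03 for *Tars* (SE), of which that of *Tars* was called (edgeR adjusted p = 9.49e-05). In input they were -0.06 ± 0.02, -0.08 ± 0.03, -0.03 ± 0.03, -0.06 ± 0.03 and -0.07 ± 0.03 in the same order, of which that of *Gars* was called. The counts of *Iars* are less certain than the rest, since the pseudogene *Gm4849* matches 1656 bases of its transcript at 96.0% identity.

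**Figure D5:**
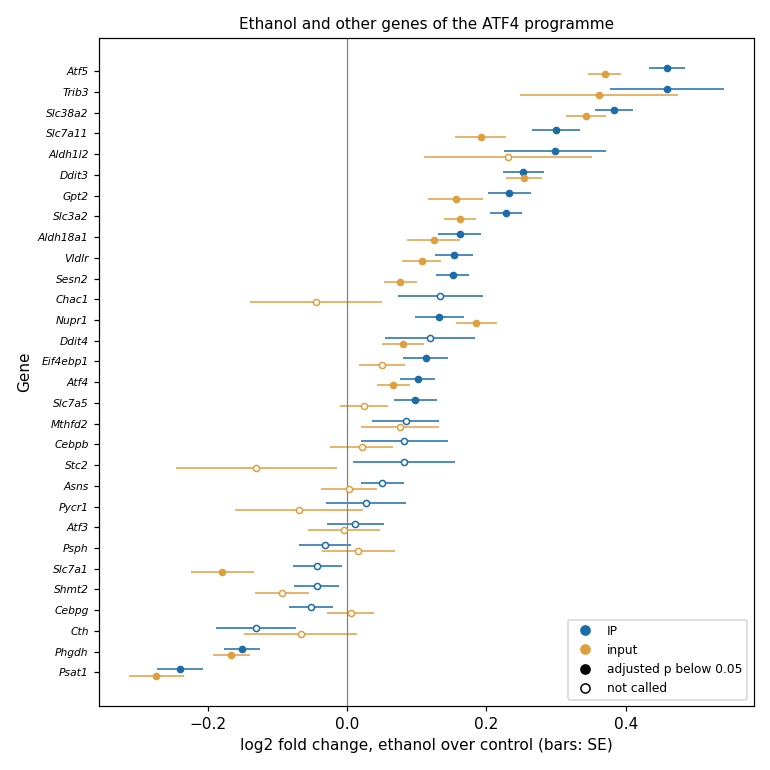
Log2 fold change of ethanol over control, with SE bars, for 30 genes of the ATF4 programme other than synthetases, in IP (blue) and input (orange). Filled points have an adjusted p below 0.05. *Atf5* and *Trib3* lie furthest right, at 0.46 in IP, and *Psat1* furthest left.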

How the data were processed

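Per the study's methods and the labels, the authors trimmed paired reads of stranded, rRNA-depleted total RNA libraries with Trimmomatic, aligned them to GRCm38 with Ensembl annotation using STAR and deposited raw counts of uniquely mapped read pairs per gene (versions are not given in the sources used here). The unstranded counts were used. Libraries held 74239854 to 132810705 pairs on genes, multimapped pairs (2.95% to 4.77%) and ambiguous pairs (5.37% to 5.66%) being left out. Genes with at least 10 pairs over the 18 libraries were fitted with edgeR 4.0.16 in R 4.3.3 (TMM, robust quasi-likelihood test). Benjamini-Hochberg adjustment was over all 24495 genes, with a threshold of 0.05. The procedure was also run on counts simulated from its own fitted dispersions, which cannot show whether the model suits these libraries. Changes as small as most ethanol changes called in members were not simulated. The comparison of IP and input had a treatment term. CPM were TMM-scaled. DESeq2 1.42.0 and other settings were run as alternatives. Coordinates, lengths and overlaps came from GENCODE M21 (GRCm38), shared sequence from blastn 2.17.0 and promoters from RefSeq.

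The members and lists were chosen with earlier results of these data known. Every member could be named. Values per library are given for the 4 members with the largest called ethanol effects in each fraction, the 3 highest and 3 lowest called between fractions, and *Gars* and *Kars*. Other pathway genes were named if called, and those of the ATF4 programme if among the 4 largest increases or decreases, besides *Atf4*, *Asns* and *Ddit3*. Further genes were named after their values were seen. Of the genes counted, 2 are not reported here by name. Per the study's methods, input and IP libraries of a dish came from the same lysate. Their deviations correlated at 0.0290 to 0.216, and those of different dishes at up to 0.139. The correlations alone thus do not show the pairing. Whether a shared replicate number pairs a control with an ethanol dish is not stated in the sources used here.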

Additional observations from a re-analysis of the deposited data

Results flagged for a closer look

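In 5 of 76 tests (38 members in 2 groups of 6 IP libraries), 1 library stood further from the rest of its group than Dixon's 95% limit, which chance alone passes in about 1 of 20 groups. *Kars* had 165.5 CPM in IP control replicate 3, where the other 5 libraries ran from 157 to 159 CPM, and *Rars* had 116 CPM in IP control replicate 5, where the others ran from 122 to 125 CPM. *Hars* had 77.5 CPM in IP ethanol replicate 5, below the 82.1 to 84.6 CPM of the others. *Cars2* had 12.1 CPM in IP control replicate 2, above the 10.7 to 11.2 CPM of the others. *Lars2* had 1158 CPM in IP ethanol replicate 2, above the 881 to 972 CPM of the others. The calls of *Kars*, *Rars* and *Hars* in IP held when each of these libraries was left out.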

How the results depend on the processing

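Against a fold change of 1.2, 0 members were lower and 0 higher with ethanol in IP, 0 and 0 in input, and 10 were higher and 1 lower in IP relative to input. The 2 members higher with ethanol in IP were 0 in replicates 4 to 6 alone, 0 in replicates 1 to 3 alone and 1 with GC and length trends removed, and ranged from 0 to 2 when libraries were left out singly. In input the count lower ranged from 4 to 9 when libraries were left out singly. With GC and length trends removed, *Vars* in IP turned from 0.010 to -0.064 on the log2 scale (adjusted p = 0.0196). In that setting 12 of 14 calls in IP and 7 of 8 in input were kept, and *Aars*, *Tars* and *Vars* were added in input. The causes were not tested. With the replicate number as a replicate block, 13 members were lower and 2 higher in IP, with the 14 calls kept and *Lars2* added, and 8 of 8 calls were kept in input. Same-numbered control and ethanol libraries did not deviate together in every pair (correlations from -0.166 to 0.441 in IP and 0.0365 to 0.0744 in input). DESeq2, RLE size factors, total counts, no filter and the sense strand kept all 14 calls in IP, and 7 or 8 of 8 in input. Of the 32 calls between IP and input, these settings, the dish as a replicate block and either treatment alone kept 29 to 32. Leaving out *Lars2*, chosen after seeing the data, changed no count of ethanol calls. With *Tarsl2* counted as mitochondrial, 9 of 20 cytosolic members were lower in IP. With *Gars* and *Kars* left out, 8 of 19 were. Depth limited the members least counted: the lowest count of a member in a library was 564 pairs (*Ears2*).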
